A study of Drosophila melanogaster with 7 samples.

Results

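The 6 clones described here are spots of the *Drosophila* Gene Collection that the study marked as the retrotransposon *copia*. They make up 6 of the 10227 features with deposited values that were not taken as control spots by their names. The marks stand in the study's list of features that changed in embryos of another allele, a *lola* null. A *copia* clone could thus be marked only if it was in that list. According to the study, no other feature on its arrays corresponded to *copia*. The arrays of the null were not analysed here. The rule that picks the clones reads the mark alone. The clones are SD10530, LP06726, RH25277, SD27348, RH25742 and RH07382. The deposited data are 7 spotted cDNA arrays with a pair of RNA samples on each, and about 300 embryos, 10 to 12 hours after egg laying, went into each sample. The mutant embryos were homozygous for *lolaORC4*, an allele that inactivates isoform K of the transcription factor Lola, with *sca-GAL4* on 1 *lolaORC4* chromosome and *UAS-tau-eGFP* on the other. The control embryos carried *sca-GAL4* and *UAS-tau-eGFP* without a *lola* mutation, and both genotypes were in a w1118 background. The GAL4 driver of the *scabrous* gene turns on the green fluorescent reporter in the nervous system, and embryos were sorted by hand on that signal. The controls do not carry the *lola* mutant chromosomes, so what the allele does cannot be told apart from what else differs between those chromosomes or in the *copia* insertions of the stocks.

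*copia* is a retrotransposon with long terminal repeats that gave its name to a class of such elements. It is transcribed from its own repeat into an RNA that is both the messenger for its proteins and the template that is reverse transcribed into a new DNA copy. The untranslated leader behind the repeat holds an enhancer, to which Lola isoform K binds and which it activates in cultured cells, whereas isoform T binds the same site and represses. Since many near-identical copies lie across the genome, a cDNA clone of *copia* on an array measures RNA of the whole family and not that of a single copy, and the 6 clones are repeated readings of the same RNA pool. They are therefore not replicates, and the array is the unit over which values were compared.

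Each value is the log2 ratio of both channels of an array after the authors' normalization. The direction of the deposited ratios is not settled by the labels or the methods, which disagree on how many arrays had the mutant in Cy3. As deposited, all 7 arrays ran opposite to the study's list for the null, and every ratio was multiplied by -1 here. A positive value thus has the sign that *copia* has in that list. It does not mean more RNA in the mutant, and on the opposite reading every sign below would turn. An array of whole embryos also cannot tell a change in the number of cells that make *copia* RNA from a change in the amount per cell. The medians of the 7 arrays lay between -0.02 and 0.01 on the log2 scale, and precision is set by having 7 arrays.

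All 6 *copia* clones had a positive log2 ratio on every array, and each differed from 0 at an adjusted p under 0.05 (*limma*, Benjamini-Hochberg over all features). Of all features, 3.18% passed with a positive sign, 4.46% with a negative sign and 7.64% in either direction. These shares are not a matched base for the clones, which were marked in the list for the null that also set the sign. The study reported that features of that list changed in *lolaORC4* embryos more often than features drawn at random. Clone SD10530 read 1.90, 1.95, 2.18, 2.20, 2.19, 1.86 and 2.59 on replicates 1 to 7. Its mean of 2.12 ± 0.25 (SD, n = 7 arrays, standard error 0.08, adjusted p = 3.1e-06 from *limma*) is a 4.36-fold ratio between both RNA samples. The values of SD10530 lay close together on 6 of the arrays, and only replicate 7 stood well above the rest. Clone LP06726 had its lowest log2 ratio of 1.73 on replicate 1, a median of 2.13 and its highest of 2.53 on replicate 7, with a mean of 2.11 ± 0.26 (SD, n = 7). The 4 other clones had their lowest log2 ratio on replicate 2 and their highest on replicate 7. For RH25742 these were 1.29 and 2.72 around a median of 2.03, the widest span among the clones, and its mean was 1.99 ± 0.43 (SD, n = 7, standard error 0.13, adjusted p = 6.2e-05 from *limma*, the highest among the 6). RH25277 ranged from 1.48 to 2.56 with a median of 2.06 and a mean of 2.02 ± 0.34 (SD, n = 7). SD27348 ranged from 1.43 to 2.69 (mean 2.01 ± 0.39, SD, n = 7) and RH07382 from 1.35 to 2.64 (mean 1.98 ± 0.39, SD, n = 7).

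**Figure D1:**
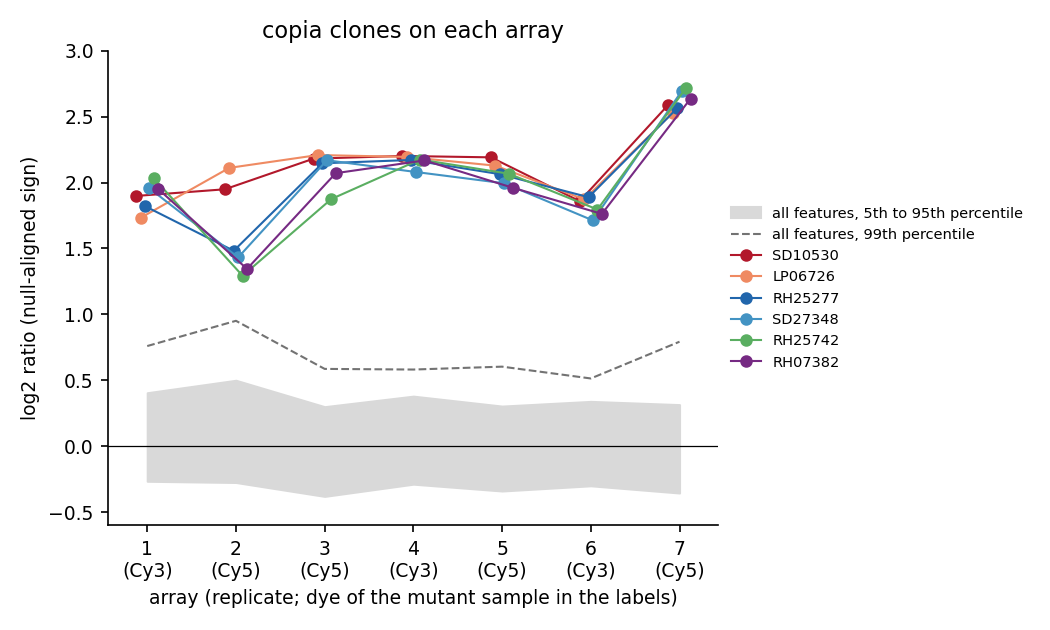
Log2 ratio (null-aligned sign) of the 6 *copia* clones on each of the 7 arrays, with the 5th to 95th percentile (grey band) and the 99th percentile (dashed line) of all features on that array; lines join the values of a clone and mark no order of the arrays. All 6 clones lie above the 99th percentile on every array, and on replicate 2 SD10530 and LP06726 lie apart from the 4 other clones.

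Averaged over the 7 arrays, the clones lay far closer together than the arrays did. Within single arrays the SD between the clones ran from 0.04 on replicate 4 to 0.34 on replicate 2. The 6 clone means spanned 1.98 to 2.12 (SD of the clone means 0.06), whereas the mean over the clones ran from 1.60 on replicate 2 to 2.62 on replicate 7 (SD between arrays 0.32, n = 7). As a ratio between both samples this is 3.04-fold on replicate 2 and 6.16-fold on replicate 7, with 4.11-fold for the mean of 2.04. Within an array, the 6 clones lay within 0.12 of each other on replicate 4, within 0.18 on replicate 6 and within 0.19 on replicate 7. On replicate 2 they spanned 0.82. There LP06726 was at 2.11 and SD10530 at 1.95, while RH25277 (1.48), SD27348 (1.43), RH07382 (1.35) and RH25742 (1.29) lay lower without overlap. The mean of the first pair exceeded that of the other 4 clones by 0.64 on replicate 2. On the other arrays this difference was small and took either sign, from -0.12 on replicate 1 and -0.09 on replicate 7 to 0.14 on replicate 5. The pair was singled out after its values were seen, so the gap is given as a description and was not tested. Each of the 8 comparisons of a clone of the pair with a clone of the other 4 had its largest difference on replicate 2. Without replicate 2 the clone means spanned only 2.09 to 2.15, and the mean over the clones was 2.11 ± 0.28 (SD, n = 6). The stretch of the element that each clone carries is not stated in the sources used.

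Over the 7 arrays, the log2 ratios of 2 clones correlated with a Pearson r from 0.52 to 0.98 in the 15 pairs. Among the 4 clones that were low on replicate 2 it was 0.93 to 0.98, and between SD10530 and LP06726 it was 0.92. The lowest value, 0.52, was that of LP06726 with RH25742, and without replicate 2 the lowest of the 15 was 0.74. The points are the same 7 hybridizations for every clone, so these correlations describe how the readings of the same RNA samples moved together.

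Among all features the *copia* clones stood at the positive end. Ordered by mean log2 ratio, they held places 2 to 7 of all features, behind LD47115, a clone of *CG18754*, which lay just outside them at 3.35 ± 1.32 (SD, n = 7). The next feature below was RH01575, a clone of *CG6870*, at 1.88 ± 0.53 (SD, n = 7). By size regardless of sign the clones held places 9, 10 and 12 to 15. On single arrays the places were less even. On replicate 4 all 6 clones were among the 7 most positive features, and on replicate 7 they lay among places 6 to 13 with other features between them. On replicate 2 SD10530 and LP06726 were at places 7 and 5 while the 4 other clones fell between places 25 and 36. Only 11 features on the array lay above 1 on every array, and 6 of these were *copia* clones. On the opposite side, 10 features lay below -1 on every array. The other 5 above 1 were LD47115, RH01575, the *Stalker2* clone SD04061, the *opus* clone LD21171 and RE70695, a clone without a single gene name. The features with an adjusted p at or below the highest of the *copia* clones numbered 13, the clones included.

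The spread of the *copia* clones between arrays was large for the array as a whole but not for features of such size. Their SD between arrays, 0.25 to 0.43, exceeded the median of all features (0.14), and 85.3% of the features had an SD at or below that of the steadiest *copia* clone. Among the 52 features with a mean over 1 in size, the median SD was 0.51, above that of all 6 clones. LD47115, the feature above them in the order, had an SD of 1.32 and ranged from 1.57 on replicate 2 to 5.98 on replicate 7.

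**Figure D2:**
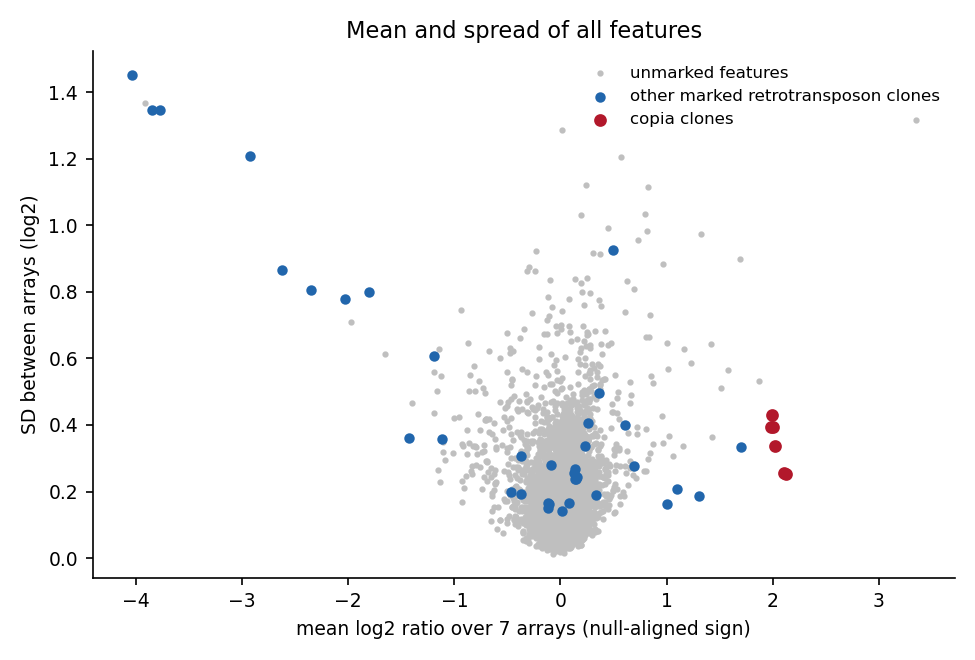
Mean log2 ratio over the 7 arrays (horizontal axis, null-aligned sign) and SD between arrays (vertical axis, log2) of each feature; *copia* clones in red, other marked retrotransposon clones in blue, unmarked features in grey. The 6 *copia* clones lie together between 1.98 and 2.12 with an SD of 0.25 to 0.43, apart from the bulk of features around 0.

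The platform's annotation gave a gene name to 2 of the 6 *copia* clones, and for both the gene has further clones on the array that are not marked. These clones were taken as readings of the RNA of the named gene. That rests on the annotation, as their sequences were not checked. SD10530 was annotated to *CG5953*, on chromosome arm 2L. The unmarked clone of that gene, RE18252_ReAmp, read 0.04, 0.26, 0.20, -0.20, 0.17, -0.21 and 0.02 on replicates 1 to 7. Its mean was 0.04 ± 0.19 (SD, n = 7, adjusted p = 0.79 from *limma*), and its highest value lay below the lowest of SD10530. RH25277 was annotated to *sls*, on chromosome arm 3L, which encodes the giant titin-like proteins of the muscle sarcomere. The 3 unmarked *sls* clones had mean log2 ratios of 0.21 ± 0.27 (GM05288), 0.27 ± 0.29 (GM05521) and 0.11 ± 0.38 (RH63601; SD, n = 7 for each), and none passed the test (adjusted p from 0.12 to 0.66, *limma*; 2 of the 3, GM05288 and GM05521, had an unadjusted p under 0.05). All 3 were highest on replicate 2, at 0.59, 0.67 and 0.92, the array on which RH25277 was lowest, at 1.48. Leaving out replicate 2 turned the mean of RH63601 to -0.03.

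The difference between a clone and the mean of the unmarked clones of its gene was then tested in the same way for every feature that had such a partner. There were 1923 such differences, of which those of genes with a pair of clones occur with both signs. Of them, 2.08% passed at an adjusted p under 0.05 (*limma*, Benjamini-Hochberg over the 1923) and 1.04% were positive and passed. SD10530 exceeded the *CG5953* clone by 2.09 ± 0.31 (SD, n = 7, standard error 0.10, adjusted p = 4.7e-05), between 1.69 and 2.57 on the single arrays. RH25277 exceeded the mean of the *sls* clones by 1.82 ± 0.56 (SD, n = 7, standard error 0.18, adjusted p = 0.0048). On replicate 2 its difference was 0.75, and on the 6 other arrays it was 1.62 or more. These were the largest and the second largest of the 1923 differences, against a median size of 0.04 and a 99th percentile of 0.57. The 1923 differences are not a matched base for both clones, which were marked in the list for the null that also set the sign. A positive difference was thus likely from the choice of the clones. Both clones lay among the other *copia* clones and away from the clones of the gene whose name they carry.

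**Figure D3:**
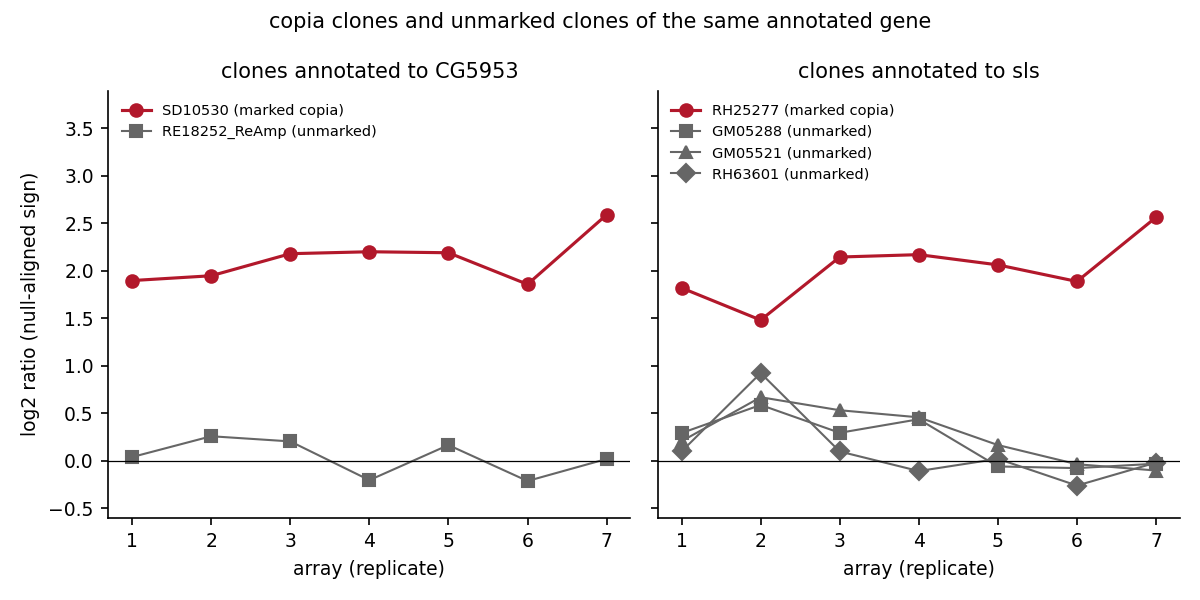
Log2 ratio (null-aligned sign) on each of the 7 arrays of SD10530 and the unmarked clone of *CG5953* (left) and of RH25277 and the 3 unmarked clones of *sls* (right); lines join the values of a clone and mark no order. Both *copia* clones (red) lie above every unmarked clone (grey) on all 7 arrays, with the smallest gap for *sls* on replicate 2.

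By the labels, replicates 1, 4 and 6 had the mutant sample in Cy3 and the 4 other arrays had it in Cy5. SD10530 had a mean log2 ratio of 1.99 on the former and 2.23 on the latter. For LP06726 these were 1.93 and 2.24, a difference of 0.31 (standard error 0.14), the largest among the 6 clones. For RH25742 they were 2.00 and 1.99. The values of the dye orientations overlapped for each clone, and the arrays with the lowest and the highest mean of the clones, replicates 2 and 7, were both in the Cy5 set. Of the 6 clones, 0 had a dye term different from 0 at an adjusted p under 0.05 (*limma*, lowest adjusted p = 0.19), and at an unadjusted p under 0.05 the count was also 0. Over all features 10.6% had such a term.

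The profile most like that of *copia* was sought among all other features as the root mean square difference from the mean of the 6 clones over the 7 arrays, a measure in log2 units. The closest was RH01575 (*CG6870*), at a distance of 0.28. It read 1.73, 1.26, 2.25, 1.95, 1.74, 1.39 and 2.82 on replicates 1 to 7, so that its lowest value fell on replicate 2 and its highest on replicate 7, as in 4 of the *copia* clones. The next was SD04061, marked as the retrotransposon *Stalker2*, at a distance of 0.34. It lay below the mean of the *copia* clones on all 7 arrays, from 1.25 on replicate 2 to 2.33 on replicate 7, with a mean of 1.70 ± 0.34 (SD, n = 7). The third was GH13327, a clone of the actin nucleation gene *spir*, at a distance of 0.52 and a mean log2 ratio of 1.58 ± 0.57 (SD, n = 7). The others were RH01692, also a clone of *CG6870* (distance 0.59, mean 1.52 ± 0.51), and RE70695 (distance 0.62, mean 1.43 ± 0.36; SD, n = 7 for both). The largest distance between 2 *copia* clones was 0.36. That value compares single clones, whereas the distances above are from the mean of 6 clones, so they are not alike. The distance of each *copia* clone from that mean was not taken. Across the 7 arrays the Pearson r with the mean of the *copia* clones was 0.99 for SD04061, 0.97 for GH13327, 0.96 for RH01575, 0.95 for RE70695 and 0.85 for RH01692. That of single *copia* clones with the mean of the other 5 ran from 0.68 (LP06726) to 0.97. All these points come from the same 7 hybridizations. Whether RE70695, RH01575 or RH01692 hold *copia* sequence was not tested, since no clone sequence was used here. The study itself assigned only the 6 marked clones to *copia*.

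**Figure D4:**
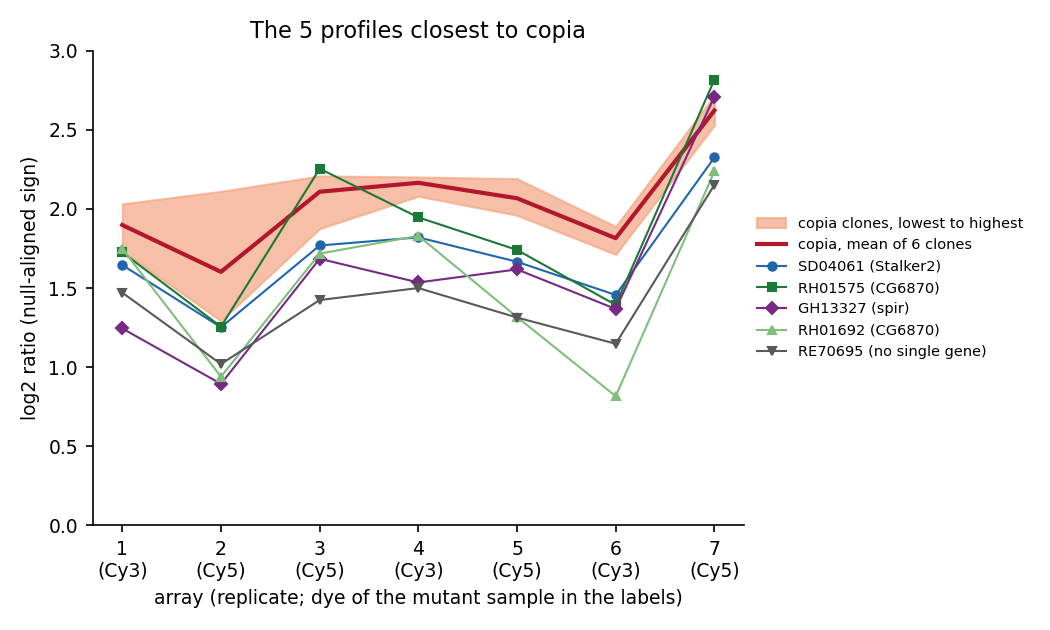
Log2 ratio (null-aligned sign) on each of the 7 arrays of the 5 features closest to *copia*, over the span from the lowest to the highest *copia* clone (shaded) and the mean of the 6 clones (red line); lines join the values of a feature and mark no order. SD04061 lies below the red line on every array with the same highs and lows, and RH01575 crosses it on replicates 3 and 7.

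The study marked 17 retrotransposon families. Family means were taken for those with several marked clones and for the single clones of *Stalker* and *opus*. Only clones in the list for the null carry a mark, so any clone of the other families outside that list is missing from the means. With the sign used here *copia* had the highest of these means on every array, and with the sign turned it would have the lowest. By size regardless of sign it was not the largest. A family of 7 clones, all of which passed with a negative sign, had a mean of -2.89 ± 1.08 (SD, n = 7) and was larger in size than *copia* on 6 of the 7 arrays, all but replicate 2. On the positive side the closest in value to *copia* were *Stalker2* and *opus*, elements of the gypsy class. The mean of the 2 *Stalker2* clones ran from 1.09 on replicate 2 to 1.89 on replicate 7, and that of *opus* from 1.01 on replicate 1 to 1.52 on replicate 3. The lowest mean of *copia*, 1.60, lay above the highest value of *opus* and below the highest of *Stalker2*. The families also differed in how evenly their clones read. The *copia* clone means lay within 0.14 of each other, and those of *Stalker2* were 1.70 and 1.10. The clone means of the negative family of 7 spread from -4.04 to -1.19. The 4 *blood* clones spread from -2.35 to -0.37 around a family mean of opposite sign to *copia* (-1.30 ± 0.49, SD, n = 7), and 3 of them passed the test. *roo*, with 8 clones, was at 0.23 ± 0.36 and the 2 *Max-element* clones at 0.41 ± 0.23 (SD, n = 7 for both), and a family of 3 clones was at -0.10 ± 0.19 (SD, n = 7). Of the *roo* clones 0 passed, of the *Max-element* clones 1, and of the family of 3 clones 0. The 2 *Stalker2* clones and the single clones of *Stalker* and *opus* passed. Over all features 7.64% passed in either direction. That share is not a matched base for these clones, which were marked in the list for the null. Differences between families were not tested.

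Replicates 2 and 7 were also the extremes of other families. On replicate 2 the negative family of 7 clones (-1.44), *blood* (-0.67), *Stalker2* (1.09) and *copia* (1.60) each had the family mean nearest to 0, and on replicate 7 each had the mean farthest from 0, at -5.03, -2.27, 1.89 and 2.62. *roo* ran otherwise, with its highest mean of 0.71 on replicate 2. The SD over all features was 0.33 on replicate 7, the largest of the 7 arrays, and 0.23 to 0.27 on the others. The median absolute deviation, which large values hardly move, was lowest on replicate 7 (0.16, against 0.17 to 0.18 on the others). The part of the array as a whole in these differences was not tested.

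**Figure D5:**
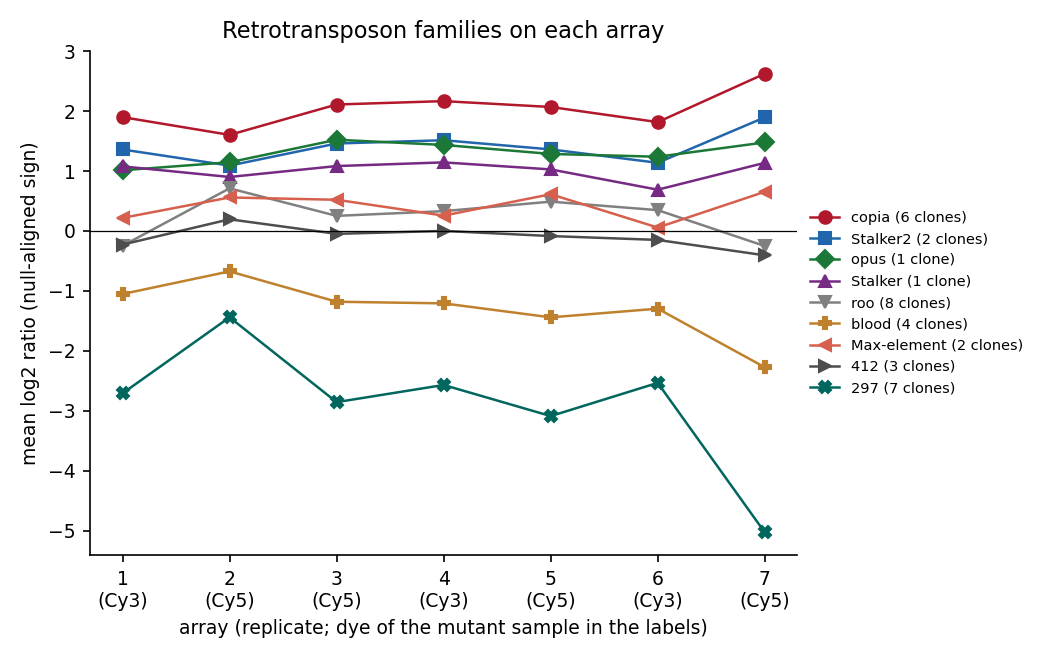
Mean log2 ratio (null-aligned sign) over the clones of *copia* and of 8 other retrotransposon families, named with their clone numbers in the legend, on each of the 7 arrays; lines join the values of a family and mark no order. With this sign *copia* lies highest on every array, and the lowest family, of 7 clones, lies farther from 0 than *copia* on all arrays but replicate 2; both, with *Stalker2* and *blood*, are nearest to 0 on replicate 2 and farthest from it on replicate 7.

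Genes that act on *copia* or on retrotransposons in general had far smaller log2 ratios. *lola*, the source of the isoforms that bind the *copia* enhancer, was read by 4 clones with opposite signs. GM09276 was at 0.46 ± 0.18 and GH08307 at 0.17 ± 0.05, LD17006 at -0.44 ± 0.12, all past the test, and LD28033 at 0.14 ± 0.37 was not (SD, n = 7 for each). Of all features, 3.18% passed with a positive and 4.46% with a negative sign. No source used here says which isoforms the *lola* clones read, so the labels cannot be checked with them. Small RNA pathways silence transposons, with Piwi proteins and their guide RNAs acting chiefly in the gonads and the short interfering RNA pathway in somatic cells. Of 21 features of 20 genes of these pathways, 3 were positive and passed, 0 were negative and passed, and 18 did not pass (*limma*), where 3.18% of all features passed with a positive sign. At an unadjusted p under 0.05 there were 6 of 21 (28.6%), near the 21.9% of all features. The median of the list was 0.03 against 0.01 for all features. *aub*, which encodes a Piwi protein, was at 0.24 ± 0.12, *Panx*, which encodes a factor of Piwi-guided transcriptional silencing, at 0.15 ± 0.06, and *tej*, which encodes a Tudor domain protein of the germ line, at 0.14 ± 0.05 (SD, n = 7 for each). *Panx* lost its call when any of the arrays was left out (adjusted p from 0.052 to 0.085) and *tej* when any but replicate 2 was (0.064 to 0.10). GH08307 of *lola* lost it without replicate 3 (adjusted p = 0.051) or replicate 5 (0.053). Of 6 features of heterochromatin genes, such as those of heterochromatin protein families and histone methyltransferases, 0 passed in either direction and 0 at an unadjusted p under 0.05 (*limma*), with a median of 0.05. Over all features these shares were 7.64% and 21.9%, so a count of 0 among 6 features says little about these genes.

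Markers of cell types that could carry *copia* RNA were read beside these values. Ratios do not give levels, so the tissue could not be checked against its markers. Of 9 features of hemocyte genes, 2 were positive and passed, both of *Pxn*, which encodes the matrix enzyme peroxidasin (0.39 ± 0.14 and 0.21 ± 0.06, SD, n = 7), and 7 did not. At an unadjusted p under 0.05 there were also 2 of 9 (22.2%), against 21.9% of all features, and 3.18% of all features passed with a positive sign. Of 2 neuronal features that of *nSyb*, which encodes neuronal synaptobrevin of synaptic vesicles, was negative and passed (-0.39 ± 0.19, SD, n = 7). Of all features 4.46% did so. The other neuronal feature was at 0.07 and did not pass. At an unadjusted p under 0.05 there was 1 of 2, against 21.9% of all features. Among 4 germ line, 4 glial and 4 muscle features 0 passed (*limma*), with 2, 1 and 0 at an unadjusted p under 0.05, where 21.9% of all features lie. The median of the muscle list ran from 0.73 on replicate 1 to -0.60 on replicate 5. The mean over the *copia* clones was 1.90 and 2.07 on these arrays. The part of cell composition in the *copia* values was not tested.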

How the data were processed

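RNA of *lolaORC4* mutant and matched control embryos was cohybridized on 7 two-colour spotted cDNA arrays. Spot intensities were extracted with GenePix, and the authors used *limma* (version not stated in the sources used) without background correction, with print-tip loess inside each array and scale normalization between them. The deposited values are log2 ratios, 1 for each feature on each array. All 10376 features were kept, including 149 that were taken as control spots because their names are not those of clones. Features were named through the platform's annotation, with symbols updated from RefSeq genes of Release 6 plus ISO1 MT: 8598 features had 1 gene, 517 several and 1261 none.

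Ratios were multiplied by -1. The mean of each feature over the 7 arrays was fitted in R 4.3.3 with *limma* 3.58.1 (lmFit, eBayes) and Benjamini-Hochberg adjustment at 0.05, and likewise the difference from the unmarked features of a gene and a dye term. The fits were tested on simulated data. Named were the *copia* clones, the unmarked clones of their genes, the 5 closest profiles, the neighbours in the order of means, family means, *lola* clones and up to 4 called features of each list. Clones and lists were chosen with earlier results of these data known. Replicates are described as independently collected pairs. Alternatives were a dye coefficient, median centring, quantile normalization, array weights, robust empirical Bayes, no control spots, a threshold of 0.01, medians, and leaving out each array.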

Additional observations from a re-analysis of the deposited data

Results flagged for a closer look

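Of 35 sets of 7 values examined (the named features and the family means), 2 had an array whose gap to the nearest of the others, as a share of the whole range, exceeded Dixon's critical value for 7 values, and 0 of these was a *copia* clone. Chance gives such a gap in about 1 of 20 sets. The *sls* clone RH63601 read 0.92 on replicate 2, while its other values ran from -0.26 to 0.10 (gap 0.696 of the range). RE70695, a profile close to *copia*, read 2.15 on replicate 7, and its other values ran from 1.02 to 1.5 (gap 0.576 of the range).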

How the results depend on the processing

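All 6 *copia* clones passed under each of the 14 alternatives run, and the mean over the clones stayed between 1.94 and 2.11, within its SD between arrays. SD10530 against the *CG5953* clone ran from 2.00 to 2.15 (adjusted p up to 0.00068, *limma*) and RH25277 against the *sls* clones from 1.69 to 2.00 (adjusted p up to 0.02). No *copia* clone gained a dye term. The count of all features called, which sets the background, moved: 793 in the fit reported, 1234 with a dye coefficient, 313 at a threshold of 0.01, and 441 (without replicate 5) to 810 (without replicate 2) when single arrays were left out, with 446 without replicate 3 and 494 without replicate 7. The cause was not tested. Leaving out single arrays, the mean of RH63601 ran from -0.028 without replicate 2, a turned sign, to 0.17 without replicate 6. *Panx* did not pass under 7 of 13 alternatives (adjusted p up to 0.085) and *tej* under 6 of 13 (adjusted p up to 0.10). The pairing of mutant and control samples was kept in every fit, because each array is the ratio of a matched pair.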
